A study of Mus musculus with 14 samples.

Results

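A set of 9 genes that govern where a T cell goes were followed across cultured mouse CD4 T cells: the chemoattractant receptors Gpr15, Ccr9, Cxcr6 and Cxcr4, the integrin subunits Itga4, Itgb7, Itgb1 and Itgb3, and the selectin ligand Selplg. They make up 9 of the 18193 genes that a probe set with a single symbol represents on the array. The list was named by symbol, with earlier results of these data known. Each gene is described by the probe set of exactly that symbol with the highest mean over the 14 arrays. Of the 9 genes, 8 passed the filter on low signals and were tested. Ccr9 did not.

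A circulating T cell leaves the blood in steps. Selectin ligands let it roll on the vessel wall, chemokine receptors sense the tissue's ligands and activate integrins, and integrins then hold the cell and let it cross. T cells that home to the gut are known for the integrin made of the Itga4 and Itgb7 products, which binds Madcam1, and for receptors such as Ccr9 in the small intestine and Gpr15 in the large intestine.

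The cells came from spleen, peripheral and mesenteric lymph nodes. They were cultured under 3 polarising conditions, Th17, Treg and Th1, with acetate, a short chain fatty acid, or without it. The 6 groups were therefore Th17 with acetate (3 arrays), Th17 control (3 arrays), Treg with acetate (2 arrays), Treg control (2 arrays), Th1 with acetate (2 arrays) and Th1 control (2 arrays). All cultures received hIL-2. Th17 and Treg cultures received hTGF-b1, and Th17 cultures also mIL-6, mIL-1b, mIL-23, mIL-21, mTNF-a and antibodies to IL-4 and IFN-gamma. Th1 cultures received mIL-12 and an antibody to IL-4. Acetate was given at 10 mM. The sample protocols of the treated Treg and Th1 cultures print the word acetone at that dose, but sodium acetate is what the design text names for all 3 subsets, and the word acetate is used here throughout. Culture lasted 5 days in the protocols, and 6 to 7 days in the design text. Whether replicate arrays stem from different animals or cultures is not stated, so the p-values reflect only the spread between these arrays, which may be technical.

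Levels are normalised signals, the linear scale of the arrays after quantile normalization. Differences are on the scale of normalised log2(signal + 3), given as the estimate ± its standard error, and folds are 2 to the power of these differences. Each adjusted p comes from limma and was corrected by Benjamini and Hochberg's method across the 10916 genes tested. The word called stands for an adjusted p under 0.05. The lineage genes separated the labelled subsets in part. Il17a, the Th17 cytokine, averaged 4335 in Th17 acetate and 652 in Th17 control arrays, and at most 13.4 in any Treg or Th1 group. Tbx21, the Th1 factor, was highest in Th1 arrays, at 389.9 to 488 with acetate and 243 to 387 without. Ifng, the Th1 cytokine, was 8168 to 11805 in Th1 acetate arrays and 887 to 2987 in Th1 control arrays, which overlapped other groups. Foxp3, the Treg factor, was 283 to 381 in Treg control arrays, but 52.2 to 66.0 in Treg acetate arrays, which overlapped the 55.3 to 108 of Th17 control arrays. The cultures under Treg conditions with acetate are therefore named by their label and not by Foxp3. Markers of NK cells, Ncr1 and Klra8, were below the filter, as were the B cell genes Cd79a and Ms4a1 and the macrophage genes Lyz2 and Itgam, whereas Cd79b, Csf1r, Adgre1 and Cd68 passed it. In these bulk samples, fewer cells of a type and less RNA per cell cannot be told apart.

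The promoters of Gpr15, Cxcr6 and Itgb7 are shown because these are the genes with a promoter entry that fell with acetate in Th17 cultures. An entry was found for 7 of the 9 genes, and all sequences are RefSeq's on build GRCm38.p6, read 5′ to 3′ in the direction of the gene, from 250 bases before the start to 50 bases from the start on. Capitals mark matches on either strand to any of 5 short motifs: the AHR response element core GCGTG, the KLF box CACCC, the AP-1 site TGANTCA, the RUNX site TGTGGT and the retinoid receptor site AGGTCA.
Gpr15 promoter, chr16:58718823-58719122, minus strand: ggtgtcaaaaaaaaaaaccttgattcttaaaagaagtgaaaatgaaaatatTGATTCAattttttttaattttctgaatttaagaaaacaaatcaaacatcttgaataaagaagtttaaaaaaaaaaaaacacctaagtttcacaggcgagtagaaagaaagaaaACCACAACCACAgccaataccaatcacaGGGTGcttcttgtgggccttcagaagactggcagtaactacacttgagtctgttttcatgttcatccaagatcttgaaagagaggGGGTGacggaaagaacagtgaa
Cxcr6 promoter, chr9:123806227-123806526, plus strand: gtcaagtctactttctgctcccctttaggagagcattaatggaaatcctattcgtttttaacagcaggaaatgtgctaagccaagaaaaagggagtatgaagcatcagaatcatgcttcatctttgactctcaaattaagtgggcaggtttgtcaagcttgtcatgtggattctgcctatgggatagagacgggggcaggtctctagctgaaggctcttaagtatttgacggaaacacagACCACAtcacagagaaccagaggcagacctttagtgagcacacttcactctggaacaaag
Itgb7 promoter, chr15:102231886-102232185, minus strand: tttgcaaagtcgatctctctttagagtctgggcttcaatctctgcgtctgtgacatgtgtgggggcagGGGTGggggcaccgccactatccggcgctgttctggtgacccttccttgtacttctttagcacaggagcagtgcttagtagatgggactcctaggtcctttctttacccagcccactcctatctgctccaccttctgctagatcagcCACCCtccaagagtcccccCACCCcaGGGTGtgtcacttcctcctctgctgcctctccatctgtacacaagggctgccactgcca

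With the start base counted as 0, the Gpr15 window held the AP-1 letters at -199 to -193, where they read on both strands. It held the RUNX letters in a pair of adjoining matches, at -85 to -80 and -79 to -74, and the KLF letters at -57 to -53 and at 28 to 32. The Cxcr6 window held 1 match, to the RUNX letters at -10 to -5. The Itgb7 window held 4 matches, all to the KLF letters, of which 3 lay between -35 and -5. No motif was matched in all 3 windows shown. The window of Itga4, which was not called for acetate, also held 4 matches to the KLF letters. Those of Ccr9, Cxcr4 and Itgb1, not shown either, held 1, 1 and 2. Among 32851 mouse promoter windows of the same length, 57.5% held the KLF letters, 32.4% the AHR letters, 16.8% the RUNX letters, 16.3% the retinoid letters and 7.81% the AP-1 letters. A match describes letters and is not evidence that a factor binds there.

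**Figure D1:**
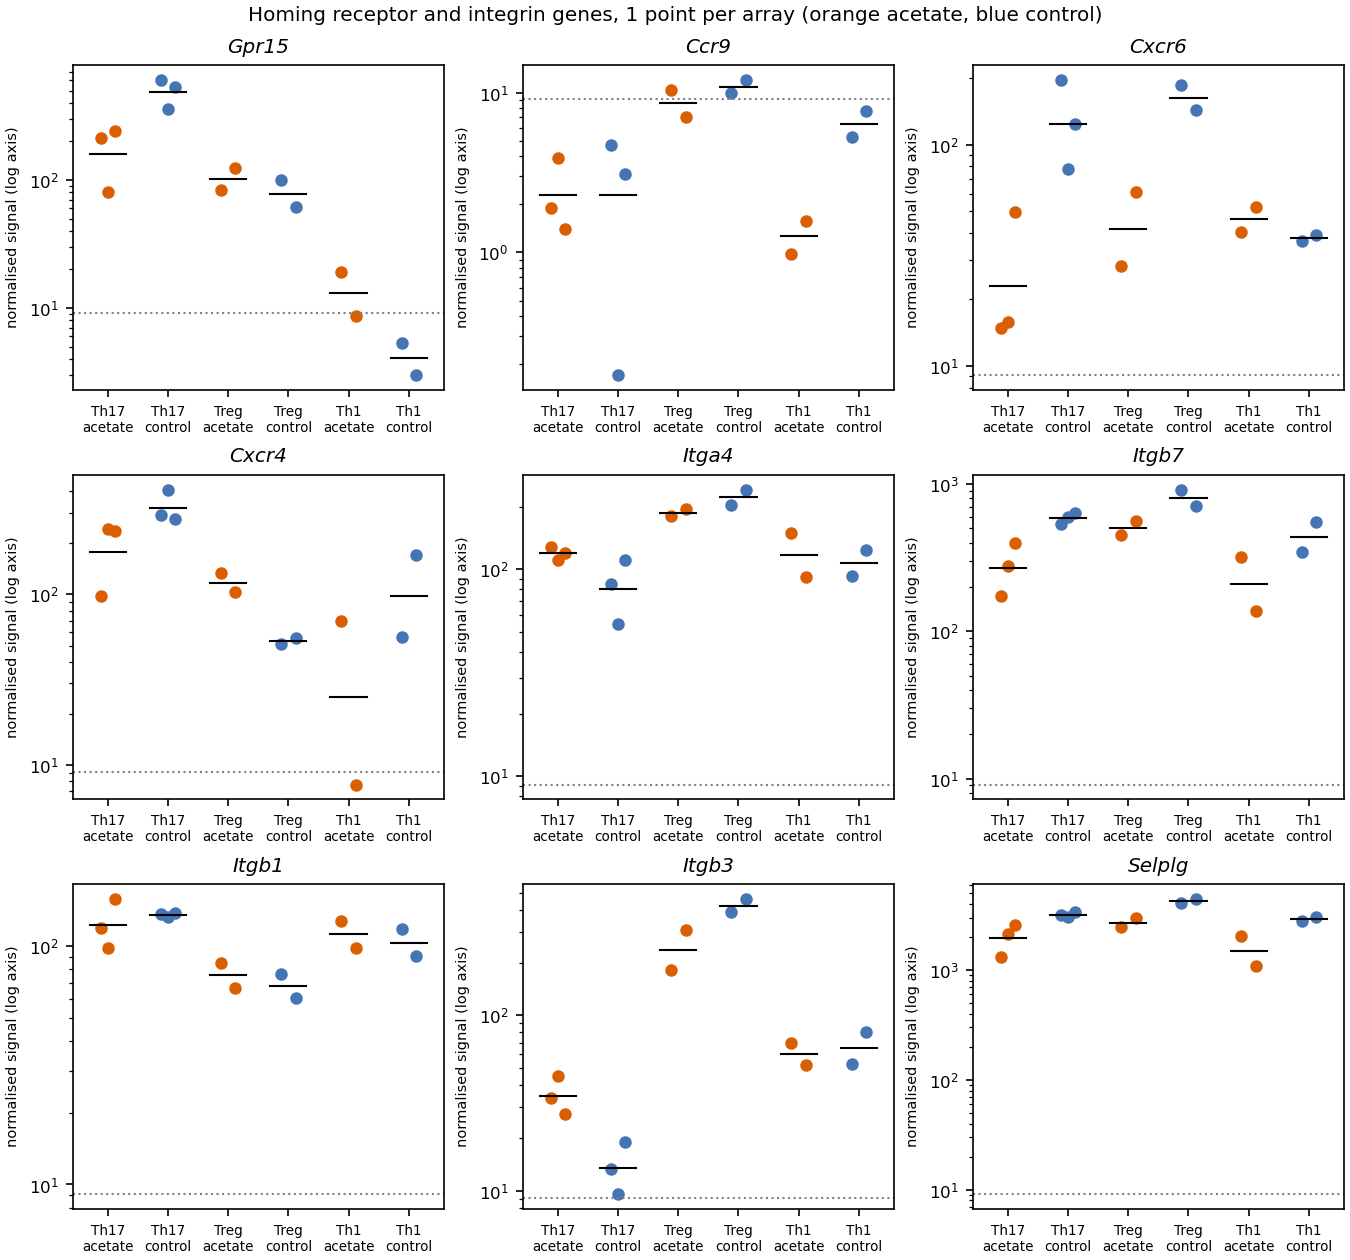
Normalised signal of each of the 9 genes in every array, on a log axis, by group, with acetate arrays in orange left of their control arrays in blue; black lines are the group means of log2(signal + 3), and the dotted line is the filter on low signals at 9.10. Selplg and Itgb7 acetate arrays lie below the control arrays of the same subset in all 3 subsets, Gpr15 is highest in Th17 control arrays at 359 to 604, and Itgb3 in Treg control arrays at 389 to 461.

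In Th17 cultures, acetate was accompanied by lower expression of Gpr15, Cxcr6, Itgb7 and Selplg and by higher expression of Itgb3. Of the 8 genes tested, 1 rose and 4 fell, beside 20.3% of all genes tested that were called in either direction, 11.7% higher and 8.67% lower. The median log2 difference of the 8 genes was -0.78, beside 0.01 over all genes tested. Since the genes were chosen with earlier results of these data known, such counts and medians cannot show that the set stands out. In Treg cultures 0 rose and 1 fell, Cxcr6, beside 12.5% of all genes called, 7.05% higher and 5.45% lower. In Th1 cultures limma called 0 of the 8 genes, beside 4.02% of all genes, 2.1% higher and 1.92% lower, and 4 of the 8 had an unadjusted p under 0.05, beside 22% of all genes. Over the mean of the 3 subsets, 0 rose and 3 fell, namely Cxcr6, Itgb7 and Selplg, beside 31.8% of all genes called, 17.7% higher and 14.1% lower.

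Gpr15, the receptor that directs T cells to the large intestine in mice, differed between all 3 untreated subsets. Th17 acetate arrays had normalised signals of 213, 80.1 and 239, against 604, 359 and 529 in Th17 control arrays. Treg acetate arrays had 83.6 and 123, against 99.6 and 61.6 in Treg control arrays. Th1 acetate arrays had 19.1 and 8.67, against 5.32 and 2.99 in Th1 control arrays. Every Th17 acetate array was thus below every Th17 control array, the Treg groups overlapped, and the Th1 arrays were below the filter of 9.10 except for 1 acetate array.

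Gpr15 fell with acetate in Th17 cultures, with a log2 difference of -1.58 ± 0.39, or 2.99-fold (limma adjusted p = 0.0130). The difference was 0.36 ± 0.48 in Treg cultures (adjusted p = 0.69) and 1.18 ± 0.48 in Th1 cultures (adjusted p = 0.17), so neither was called. A limma F test of whether the 3 acetate effects differed gave Gpr15 an adjusted p of 0.0876. When Th17 control replicate 1 was left out, the Th17 difference was -1.43 and was no longer called (adjusted p = 0.0577). The F test was called on the signals as deposited (adjusted p = 0.0466).

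Among untreated cultures Gpr15 was higher in Th17 than in Th1 by 6.11 ± 0.44 (limma adjusted p = 4.83e-06), in Treg than in Th1 by 3.53 ± 0.48 (adjusted p = 0.00153) and in Th17 than in Treg by 2.59 ± 0.44 (adjusted p = 0.00203). These 3 calls held in each of 21 alternative analyses. The size of the differences from Th1 depends on the constant added before the log, since the Th1 control mean of 4.15 was below the filter; Th17 minus Th1 ran from 5.06 to 6.60 over the alternatives. With acetate, Gpr15 was higher in Th17 than in Th1 by 3.35 ± 0.44 (adjusted p = 8.58e-04). It was higher in Treg than in Th1 acetate cultures by 2.71 ± 0.48 (adjusted p = 0.0216), a call lost without either Treg acetate array or without Th1 acetate replicate 2 (adjusted p up to 0.205). Th17 minus Treg was 0.64 ± 0.44 with acetate and was not called (95% interval -0.30 to 1.59). In order of their means, the groups ran Th17 control, Th17 acetate, Treg acetate, Treg control, Th1 acetate and Th1 control, and the neighbours that overlapped were Th17 acetate with Treg acetate and Treg acetate with Treg control.

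Ccr9, the receptor for Ccl25 that marks homing to the small intestine, was below the filter in every Th17 and Th1 array. Its best probe set had normalised signals of 0.17 to 11.98 over the 14 arrays, and none of its 5 probe sets exceeded a deposited signal of 13.8. In Treg cultures the signals were 10.4 and 7.04 with acetate, against 9.90 and 11.98 in the controls. The gene was not tested and no fold is given. Ccr9 and Cxcr6 both lie on chromosome 9. In RefSeq's GRCm38.p6 annotation 1 protein-coding gene, Fyco1, has its lower coordinate between the lower coordinates of these genes, whatever its strand.

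Cxcr6, the receptor for the membrane-bound chemokine Cxcl16, fell with acetate in both TGF-beta-treated subsets. In Th17 cultures the signals were 14.8, 15.7 and 49.7 with acetate, against 195, 77.7 and 123 in the controls. The Treg arrays gave 28.2 and 61.1 with acetate, against 185 and 144 without it. In Th1 cultures the signals were 40.4 and 52.3 with acetate, against 36.8 and 39.0 in the controls. In Th17 and in Treg cultures each acetate array was below each control array, and the acetate arrays of both overlapped the range of the Th1 arrays.

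The log2 difference of Cxcr6 was -2.28 ± 0.42 in Th17 cultures, or 4.86-fold (limma adjusted p = 0.00267), and -1.89 ± 0.52 in Treg cultures, or 3.71-fold (adjusted p = 0.0299). In Th1 cultures the difference was 0.26 ± 0.52 (adjusted p = 0.82). The mean over the 3 subsets was -1.30 ± 0.28 (adjusted p = 0.00356). The Th17 call and the call of the mean held in all 22 alternatives. The Treg call was lost without Treg acetate replicate 1 (adjusted p = 0.258), without Treg control replicate 1 (adjusted p = 0.173) or 2 (adjusted p = 0.1004), and with the mean over probe sets (adjusted p = 0.0764). The other probe set of Cxcr6 gave log2 differences of -3.18 for Th17, -1.85 for Treg and 0.51 for Th1 cultures. The F test did not show that the 3 effects differed (adjusted p = 0.153), although it was called without Th17 acetate replicate 3 (adjusted p = 0.0463).

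Among untreated cultures, Cxcr6 was higher in Treg than in Th1 by 2.02 ± 0.52 (limma adjusted p = 0.0416), a call that was lost in 8 of 21 alternatives, with adjusted p up to 0.235. Leaving out Th17 control replicate 3, either Treg control array or either Th1 control array were 5 of these 8. Th17 was above Th1 by 1.63 ± 0.47, just short of a call (adjusted p = 0.0586), and the difference was called in 4 alternatives, such as the signals as deposited (2.29, adjusted p = 0.00472). With acetate, no difference of Cxcr6 between subsets was called. Th17 minus Th1 was then -0.91 ± 0.47 and Treg minus Th1 was -0.13 ± 0.52.

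Cxcr4, the receptor for Cxcl12 that retains blood cells in the bone marrow, was not called for acetate in any subset. The Th17 arrays gave 97.0, 242 and 233 with acetate, against 290.4, 409 and 274 without it. Treg acetate arrays had 133 and 102, against 50.8 and 55.6 in Treg control arrays. The Th1 arrays gave 69.9 and 7.66 with acetate, against 56.3 and 169 without it. The acetate arrays lay below the controls in Th17, and above them in Treg. In Th1 the groups overlapped, with 1 acetate array below both controls and the other between them, and the arrays of each group were far apart.

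The log2 differences of Cxcr4 with acetate were -0.85 ± 0.58 in Th17 (limma adjusted p = 0.33), 1.09 ± 0.71 in Treg (adjusted p = 0.36) and -1.86 ± 0.71 in Th1 cultures (adjusted p = 0.15). The Th1 value moved with either acetate array, and to -1.09 without Th1 control replicate 2. Without Th1 acetate replicate 1 it was -3.25 (adjusted p = 0.00767), the mean over subsets was -0.9998 (adjusted p = 0.0166) and the F test was called (adjusted p = 0.0185, against 0.30 with all arrays). Without Th1 acetate replicate 2 it was -0.47 (adjusted p = 0.776) and the mean over subsets -0.08 (adjusted p = 0.866). Among untreated cultures, Cxcr4 was higher in Th17 than in Treg by 2.52 ± 0.65 (adjusted p = 0.0241), a call lost without any 1 of the 5 arrays compared. Th17 minus Th1 was 1.67 ± 0.65 in untreated cultures (adjusted p = 0.147). It was called on the signals as deposited (2.37, adjusted p = 0.00755) and was 0.91 without Th1 control replicate 1. With acetate, Th17 was above Th1 by 2.69 ± 0.65 (adjusted p = 0.0316), but by 1.30 without Th1 acetate replicate 2 (adjusted p = 0.362), and this call was lost in 7 of 21 alternatives. Treg acetate was above Th1 acetate by 2.10 ± 0.71 (adjusted p = 0.18), by 3.49 without Th1 acetate replicate 1 (adjusted p = 0.00690) and by 0.72 without replicate 2 (adjusted p = 0.852).

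Itgb7, which joins the Itga4 product in the gut-homing integrin and the Itgae product in the integrin of intraepithelial T cells, fell with acetate in the mean over the 3 subsets. Th17 acetate arrays had 174, 277 and 399.6, against 532, 594 and 635 in Th17 control arrays. In Treg cultures the signals were 451 and 562 with acetate, against 918 and 709 in the controls. Th1 acetate arrays had 319 and 138, against 344 and 549 in Th1 control arrays. Within each subset no acetate array reached the lowest control array.

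The mean difference of Itgb7 over the 3 subsets was -0.94 ± 0.21, or 1.93-fold (limma adjusted p = 0.00476), and it was called in all 22 alternatives. Taken alone, Th17 cultures gave -1.12 ± 0.32 (adjusted p = 0.0265), Treg cultures -0.68 ± 0.39 (adjusted p = 0.30) and Th1 cultures -1.04 ± 0.39 (adjusted p = 0.14). The F test did not show a difference between these effects (adjusted p = 0.86). The Th17 call was lost without Th17 acetate replicate 1 or 2 or any Th17 control array (adjusted p from 0.0575 to 0.0853), and Th1 cultures were called without Th1 acetate replicate 1 (-1.63, adjusted p = 0.0266) but gave -0.44 without replicate 2 (adjusted p = 0.674). No difference of Itgb7 between subsets was called with all arrays. Treg minus Th1 acetate cultures was 1.25 with all arrays, was called without Th1 acetate replicate 1 (1.84, adjusted p = 0.0187) and was 0.66 without replicate 2 (adjusted p = 0.728). Th17 was above Th1 in control cultures on the signals as deposited (1.09, adjusted p = 0.0386).

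Selplg, the P-selectin ligand of leukocytes, also fell in the mean over the 3 subsets. In Th17 cultures the signals were 1318, 2143 and 2583 with acetate, against 3186, 3061 and 3368 in the controls. The Treg arrays gave 2449.8 and 2956 with acetate, against 4073 and 4435 without it. In Th1 cultures the signals were 2033 and 1085 with acetate, against 2792 and 3027 in the controls. Again no acetate array reached the lowest control array of its subset.

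The mean difference of Selplg was -0.78 ± 0.16, or 1.72-fold (limma adjusted p = 0.00241), and was called in all 22 alternatives. The single subsets gave -0.72 ± 0.24 in Th17 (adjusted p = 0.0467), -0.66 ± 0.29 in Treg (adjusted p = 0.16) and -0.97 ± 0.29 in Th1 cultures (adjusted p = 0.0775). The Th17 call was lost in 15 of 22 alternatives (adjusted p up to 0.149), among them the removal of Th17 acetate replicate 1, which gave -0.44 (adjusted p = 0.149), of Th17 acetate replicate 2, of any Th17 control array, of any Treg array and of either Th1 control array. Th1 cultures were called without Th17 acetate replicate 1 (adjusted p = 0.0255) or Th1 acetate replicate 1 (adjusted p = 0.0137), and gave -0.52 without Th1 acetate replicate 2 (adjusted p = 0.460). No difference of Selplg between subsets was called with all arrays. Treg minus Th1 acetate cultures was 0.86, was called without Th1 acetate replicate 1 (1.31, adjusted p = 0.0202) and was 0.40 without replicate 2 (adjusted p = 0.802).

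General T cell markers moved with these falls. The summed signal of Cd3e, Cd3g, Cd3d, Cd4 and Cd2, of which 5 of 5 were tested, was 5132 to 8301 in Th17 acetate arrays, against 9271 to 10567 in Th17 control arrays. It was 7627 to 8530 in Treg acetate arrays, against 11987 to 13307 in Treg control arrays, and 5906 to 7238 in Th1 acetate arrays, against 10895 to 11216 in Th1 control arrays. Markers of other cells, far lower in signal, differed in some subsets as well. The sum of 5 macrophage and monocyte genes, of which Csf1r, Adgre1 and Cd68 passed the filter, was 94.8 to 178 in Th17 acetate and 67.0 to 74.5 in Th17 control arrays, 175 to 211 in Treg acetate and 105 to 128 in Treg control arrays, and 109 to 194 in Th1 acetate and 90.9 to 155 in Th1 control arrays. The sum of 2 CD8 T cell genes was 180.1 to 332 in Th17 acetate and 51.6 to 179 in Th17 control arrays, 259.8 to 268 in Treg acetate and 196 to 217 in Treg control arrays, and 62.3 to 105 in Th1 acetate and 36.6 to 62.6 in Th1 control arrays. The sum of 4 mast cell genes, of which Fcer1a and Mcpt4 were below the filter, was 29.8 to 40.2 in Th17 acetate and 72.0 to 104 in Th17 control arrays, 54.8 to 66.4 in Treg acetate and 61.5 to 137 in Treg control arrays, and 18.7 to 22.4 in Th1 acetate and 12.3 to 31.1 in Th1 control arrays. The sum of 4 endothelial and fibroblast genes, of which Cdh5, Col1a1 and Col3a1 were below the filter, was 39.9 to 44.0 in Treg acetate and 67.2 to 82.8 in Treg control arrays, and overlapped between acetate and control arrays in Th17 and Th1 cultures. For dendritic cells, with Flt3, Zbtb46 and Xcr1 below the filter, the sum was 35.1 to 48.7 in Treg acetate and 25.5 to 30.2 in Treg control arrays, with overlap in the other subsets. For B cells, of which Cd79b alone passed, it was 71.4 to 79.8 in Treg acetate and 83.3 to 86.4 in Treg control arrays. The other subsets again overlapped and reached at most 64.8. The part of these shifts in the falls of Cxcr6, Gpr15, Itgb7 and Selplg was not tested.

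Array controls also differed between some groups. The ratio of the 3-prime to the 5-prime Gapdh control, a sign of RNA integrity, was 1.02 to 1.03 in Treg acetate and 1.22 to 1.23 in Treg control arrays, and the part of this in the fall of Cxcr6 in Treg cultures was not tested. In Th1 cultures the actin ratio was 1.10 to 1.27 with acetate and 1.28 to 1.40 in the controls, and the 18S rRNA control was 879 to 1576 with acetate and 298 to 609 in the controls. Their part in the Th1 differences was not tested. The Gapdh ratio reached at most 1.10 in every group other than Treg control. The 18S rRNA control was 2809 to 4149 in Th17 arrays, above all Th1 arrays. The part of these in the other Treg differences and in the differences between subsets was not tested either.

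**Figure D2:**
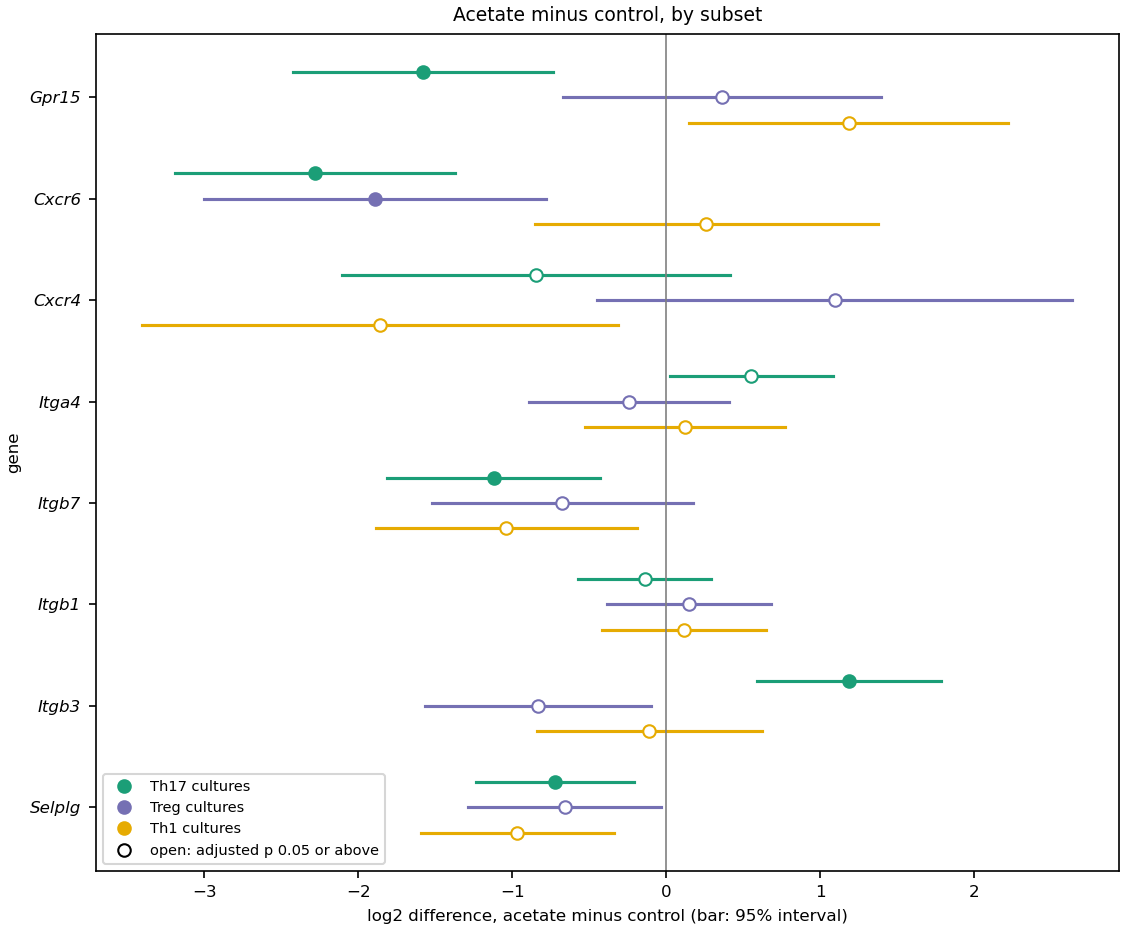
Log2 difference, acetate minus control, of the 8 genes tested in Th17, Treg and Th1 cultures, with 95% intervals; filled points have an adjusted p under 0.05. Cxcr6 is filled in Th17 (-2.28) and Treg (-1.89), Gpr15, Itgb7 and Selplg are filled below 0 in Th17, although the F test called no difference between subsets for any of these 8 genes, and Itgb3 is at 1.19 in Th17.

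Itga4, the alpha subunit shared by the Itgb7 and Itgb1 integrins, was not called for acetate. The Th17 arrays gave 128, 111 and 119.6 with acetate, against 85.0, 54.5 and 111 without it. Treg acetate arrays had 181 and 196, against 204 and 243 in Treg control arrays. The Th1 arrays gave 149 and 91.8 with acetate, against 92.7 and 124 without it. The Th17 acetate arrays lay close together at or above the upper end of the Th17 control range, and the Treg groups were the 2 highest. The differences with acetate were 0.55 ± 0.25 in Th17 (95% interval 0.02 to 1.08, limma adjusted p = 0.13), -0.24 ± 0.30 in Treg and 0.12 ± 0.30 in Th1 cultures. Among untreated cultures Itga4 was lower in Th17 than in Treg, with a log2 difference of -1.44 ± 0.27 (adjusted p = 0.00433). That call was lost on the signals as deposited (adjusted p = 0.0795), with the mean over probe sets (-0.71, adjusted p = 0.131) and without Treg control replicate 2 (adjusted p = 0.0644). Treg minus Th1 was 1.04 ± 0.30 in untreated cultures, short of a call (adjusted p = 0.0694) but called in 3 alternatives, and Th17 minus Th1 was -0.40 ± 0.27. The Itga4 probe set next in signal gave -1.51 for Th17 minus Treg control cultures and 0.98 for acetate in Th17 cultures. A weaker one that also passed the filter gave -0.18 and -0.02. With acetate Itga4 was not called between subsets, at 0.03 for Th17 minus Th1, 0.67 for Treg minus Th1 and -0.64 for Th17 minus Treg.

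Itgb1, the beta subunit that joins the Itga4 product to bind Vcam1, was not called for acetate in any subset. Th17 acetate arrays had 118, 97.5 and 157, against 136, 131 and 137 in Th17 control arrays. In Treg cultures the signals were 84.8 and 66.5 with acetate, against 75.9 and 60.1 in Treg control arrays, and Th1 acetate arrays had 127 and 97.8, against 117 and 90.2 in the controls. The groups overlapped in each subset. The 95% intervals of the difference were -0.57 to 0.29 for Th17, -0.38 to 0.68 for Treg and -0.42 to 0.65 for Th1 cultures, so a change of up to about 0.68 on the log2 scale could not be told from none. Among untreated cultures Itgb1 was higher in Th17 than in Treg by 0.96 ± 0.22 (limma adjusted p = 0.0138), a call lost with the mean over its 6 probe sets (0.47, adjusted p = 0.231) and without Treg control replicate 2 (adjusted p = 0.165). The other probe sets that passed the filter gave 1.29 and 0.87 for Th17 minus Treg. Those below the filter ran from -0.32 to 0.09. Th17 minus Th1 was 0.38 ± 0.22 and was called on the signals as deposited (1.05, adjusted p = 0.0269), and Treg minus Th1 was -0.58 ± 0.25. With acetate Itgb1 was not called between subsets, at 0.13 for Th17 minus Th1, -0.55 for Treg minus Th1 and 0.68 for Th17 minus Treg.

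Itgb3, which joins the Itgav product to bind vitronectin and the Itga2b product on platelets, was highest in Treg and lowest in Th17 control cultures. In Th17 cultures the signals were 33.6, 44.9 and 27.2 with acetate, against 13.2, 9.56 and 19.0 in the controls. The Treg arrays gave 181 and 309 with acetate, against 389 and 461 without it. Th1 acetate arrays had 69.7 and 51.9, against 52.7 and 80.3 in Th1 control arrays. The acetate arrays lay above the controls in Th17, below them in Treg and among them in Th1. The platelet markers, of which Ppbp and Gp9 were below the filter, summed to 43.6 to 80.4 in Th17 acetate and 54.2 to 76.1 in Th17 control arrays, and to 72.3 to 84.3 in Treg acetate and 79.4 to 81.7 in Treg control arrays. In Th1 cultures they summed to 68.41 to 118 with acetate and to 61.7 to 68.38 in the controls.

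Itgb3 rose with acetate in Th17 cultures by 1.19 ± 0.28, or 2.28-fold (limma adjusted p = 0.00966). The Treg difference was -0.83 ± 0.34 (adjusted p = 0.13) and the Th1 difference -0.11 ± 0.34 (adjusted p = 0.89). The F test of the 3 effects gave an adjusted p of 0.0834, and 0.0386 without Th1 acetate replicate 1. The Th17 call was lost with the mean over both probe sets (0.63, adjusted p = 0.144), of which the second was below the filter.

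Among untreated cultures Itgb3 was lower in Th17 than in Treg, with a log2 difference of -4.69 ± 0.31, or 25.8-fold (limma adjusted p = 3.10e-06). It was higher in Treg than in Th1 by 2.65 ± 0.34 (adjusted p = 0.00104), and both calls held in all 21 alternatives. Th17 minus Th1 was -2.05 ± 0.31 (adjusted p = 0.00194), or -1.01 with the mean over probe sets, which was not called (adjusted p = 0.0880). With acetate, Th17 minus Treg was -2.67 ± 0.31 (adjusted p = 8.37e-04) and was called in all 21 alternatives. Treg minus Th1 was then 1.92 ± 0.34 (adjusted p = 0.0214) and was lost in 4, with adjusted p up to 0.221: the mean over probe sets, and the removal of either Treg acetate array or of Th1 acetate replicate 2.

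**Figure D3:**
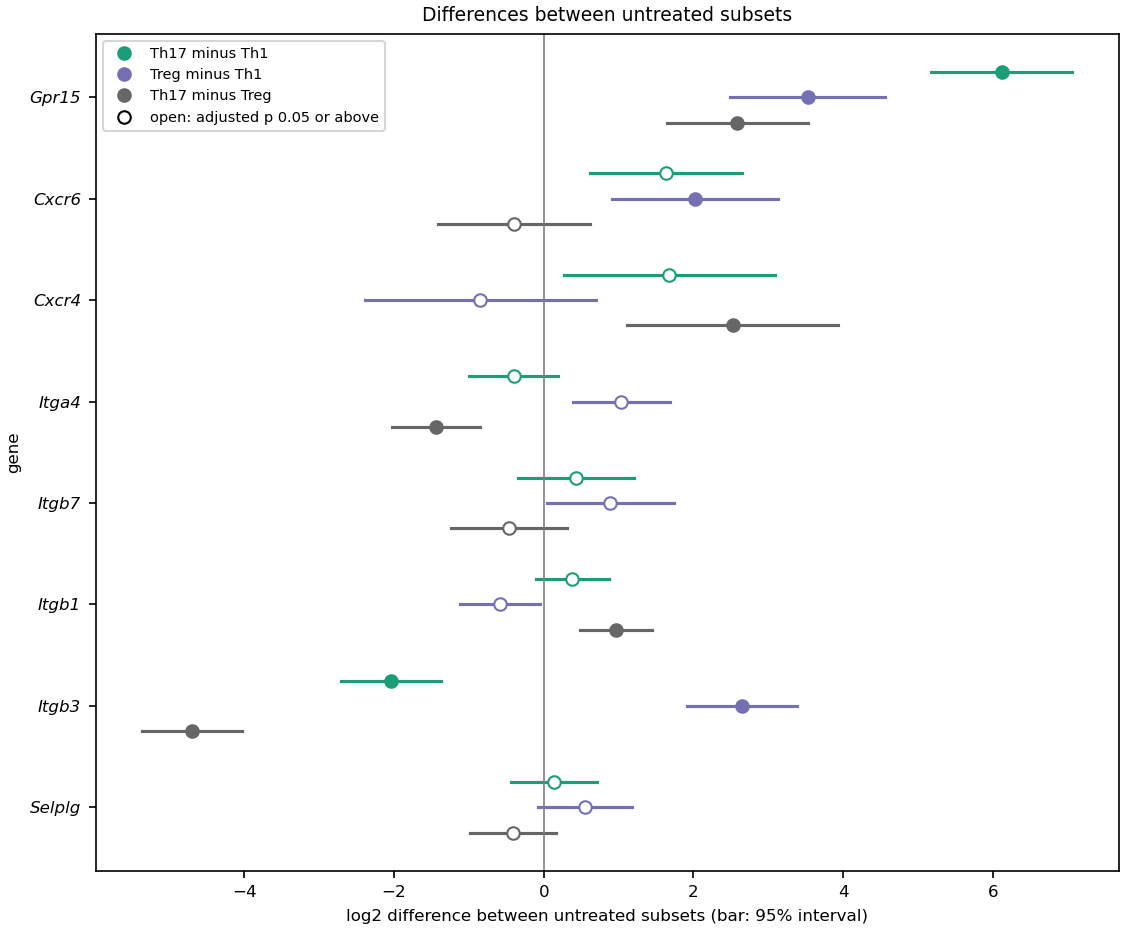
Log2 differences of the 8 genes between untreated cultures, Th17 minus Th1, Treg minus Th1 and Th17 minus Treg, with 95% intervals; filled points have an adjusted p under 0.05. Gpr15 is at 6.11, 3.53 and 2.59 in these comparisons and Itgb3 at -2.05, 2.65 and -4.69, while Itgb7 and Selplg have no filled point.

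Counted over the 8 genes, 1 was higher and 1 lower in Th17 than in Th1 control cultures, beside 6.6% of all genes called, 3% higher and 3.6% lower. In Treg against Th1 control cultures 3 were higher and 0 lower, beside 5% of all genes, 2.86% higher and 2.14% lower. In Th17 against Treg control cultures 3 were higher and 2 lower, beside 11.3% of all genes, 5.32% higher and 6.01% lower. With acetate, 2 were higher and 0 lower in Th17 than in Th1 cultures, beside 5.24% of all genes, 3.22% higher and 2.02% lower. For Treg against Th1 acetate cultures 2 were higher and 0 lower, beside 1.49% of all genes, 1.08% higher and 0.412% lower. For Th17 against Treg acetate cultures 0 were higher and 1 lower, beside 0.925% of all genes, 0.431% higher and 0.495% lower. The comparisons share arrays and are not independent of each other, and the genes were chosen with earlier results of these data known. The F test of the acetate effects called 0 of the 8 genes, beside 0.797% of all genes, and 4 of the 8 had an unadjusted p under 0.05, beside 14.6% of all genes.

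Across the 14 arrays, which share the normalization and the 6 groups, Itgb7 and Selplg had the closest profiles of any pair (Pearson's r = 0.97). Itga4 and Itgb3 followed at r = 0.90. Itgb1 ran against Itgb3, at r = -0.90, and against Itga4, at r = -0.73. Cxcr6 had r = 0.70 with Itgb7 and 0.67 with Selplg, and Gpr15 had r = 0.62 with Cxcr4.

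**Figure D4:**
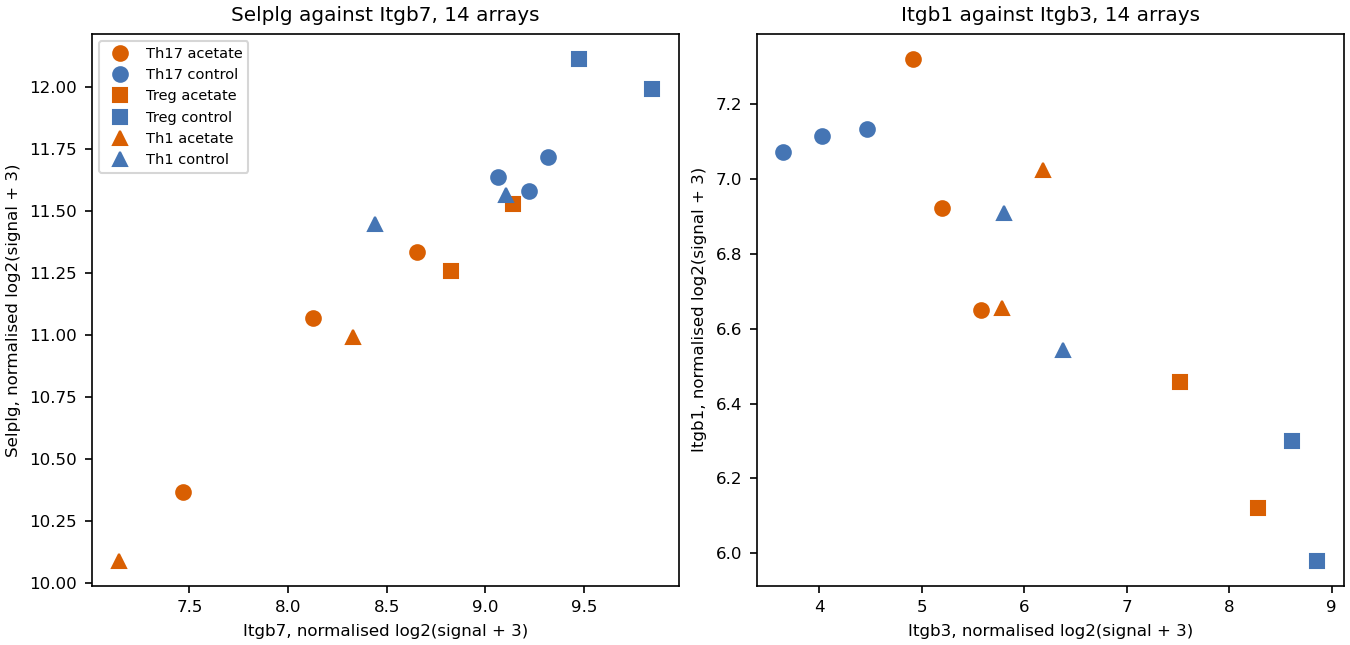
Normalised log2(signal + 3) of Selplg against Itgb7 (left) and of Itgb1 against Itgb3 (right), 1 point per array, with acetate in orange, control in blue and the subset by symbol. Selplg and Itgb7 rise together over the 14 arrays (r = 0.97), with mostly control arrays at the upper end, and Itgb1 is lowest in Treg arrays, where Itgb3 is highest (r = -0.90).

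For each of the 8 genes, the 2 other tested genes with the highest Pearson's r over the 14 arrays were taken. For Gpr15 they were Ccl20, the ligand of Ccr6, at r = 0.95, and Cldnd1 at r = 0.95. For Cxcr6 they were Gimap8 at r = 0.90 and Sppl2a at r = 0.89. For Cxcr4 they were Igfbp4 at r = 0.95 and Arid5a at r = 0.95. For Itgb3 they were Nudt14 at r = 0.96 and Eno3 at r = 0.95, and for Itgb7 Pde4d at r = 0.96 and Pik3ip1 at r = 0.95. For Selplg they were Abtb1 at r = 0.98 and Kmt2e at r = 0.97, for Itga4 Hip1r at r = 0.93 and Washc1 at r = 0.92, and for Itgb1 Nfatc2 at r = 0.90 and Sgpl1 at r = 0.87.

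The other genes of the homing steps were counted in lists of their own. These lists too were chosen with earlier results of these data known, so their counts cannot show that a list stands out. Of 14 other trafficking receptors tested, out of 20 listed, 4 rose and 4 fell in the mean acetate effect, where 17.7% of all genes tested rose and 14.1% fell. Their median log2 difference was 0.45, beside 0.03 over all genes tested. In Th17 cultures Cxcr3 and Cxcr5 rose and 0 fell, beside 11.7% and 8.67% of all genes. The Cxcr3 difference ran from 1.96 to 2.44 over the alternatives. In Treg cultures Ccr4, Cxcr5 and Ltb4r1 rose and Ccr6, S1pr1 and S1pr4 fell, beside 7.05% and 5.45%. In Th1 cultures Ccr1 and Cxcr5 rose and 0 fell, beside 2.1% and 1.92%. Ccr7 was called in no single subset. In the mean effect, those that rose furthest were Cxcr5 (1.79 ± 0.19, limma adjusted p = 4.06e-05), a receptor of follicular helper cells, Ltb4r1 (1.09 ± 0.25) and Ccr1 (0.93 ± 0.28). Those that fell furthest were the lymph node receptor Ccr7 (-0.94 ± 0.31), Ccr6 (-0.66 ± 0.21) and S1pr4 (-0.59 ± 0.13). The calls of Cxcr5, Ltb4r1 and S1pr4 held in all 22 alternatives, those of Ccr1, Ccr6 and Ccr7 in 20, 15 and 13 of them, with differences of 0.58 to 1.29, -0.89 to -0.42 and -1.37 to -0.52.

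Of 10 other integrin subunits tested, out of 18 listed, 1 rose and 4 fell in the mean acetate effect, beside 17.7% and 14.1% of all genes, with a median of -0.15. Itgae, the partner of Itgb7 that binds E-cadherin, fell by 1.95 ± 0.42 (limma adjusted p = 0.00381), and Itgal, the alpha subunit of the leukocyte integrin with Itgb2, fell by 0.69 ± 0.10 (adjusted p = 2.79e-04), both in all 22 alternatives, in which Itgal ran from -0.77 to -0.37. Itga6 fell by 0.60 ± 0.18 in the mean and held in 18 of the 22. In Th17 cultures alone 0 of the 10 rose and 3 fell, namely Itgae, Itgal and Itgb2, beside 11.7% and 8.67% of all genes. In Treg cultures Itga3 and Itgb5 rose and Itgal fell, beside 7.05% and 5.45%. In Th1 cultures 0 rose and 0 fell, beside 2.1% and 1.92%. Itga6 was called in no single subset. Among untreated cultures Itgae was higher in Th17 than in Th1 by 3.72 ± 0.71 (adjusted p = 0.00832) and in Treg than in Th1 by 3.74 ± 0.78 (adjusted p = 0.0149, lost in 2 of 21 alternatives).

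The list of selectin ligands and their enzymes, with 11 of 13 tested, held members that moved in both directions: 5 rose and 1 fell in the mean acetate effect, beside 17.7% and 14.1% of all genes, with a median of 0.37. Those that rose furthest were St3gal6 (1.73 ± 0.29), a sialyltransferase, Cd24a (1.70 ± 0.19), a cell surface glycoprotein, and Gcnt1 (1.41 ± 0.23), which builds the branched glycans that carry selectin ligands. Fut7, the fucosyltransferase of selectin ligands, fell by 0.73 ± 0.19 (limma adjusted p = 0.0112). These 4 calls of the mean held in all 22 alternatives, over which St3gal6 ran from 0.95 to 1.90. Taken alone, Th17 and Th1 cultures called St3gal6, Cd24a and Gcnt1. Fut7 was called in Th17 cultures only, and Treg cultures called none of these 4.

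Of 14 genes of integrin activation tested, out of 15 listed, 3 rose and 4 fell in the mean acetate effect, beside 17.7% and 14.1% of all genes, with a median of -0.14. Vcl, the adaptor vinculin, rose by 1.68 ± 0.17 (limma adjusted p = 3.23e-05). Fyb, Fermt3 and Rassf5, which promote integrin activation in leukocytes, had differences of -1.11 ± 0.21, -0.81 ± 0.08 and -0.78 ± 0.10 and fell. All 4 calls of the mean held in the 22 alternatives tried, over which Vcl ran from 0.77 to 1.86, the lowest with the mean over probe sets. Taken alone, all 3 subsets called Vcl and Fermt3. Rassf5 was called in Th17 and Treg cultures, and Fyb in Treg cultures only. Of 11 trafficking regulators tested, out of 12, 2 rose and 1 fell in the mean effect, beside 17.7% and 14.1% of all genes. Klf2, a transcription factor that maintains S1pr1, fell by 2.60 ± 0.29 (adjusted p = 5.16e-05), while Ahr and Batf rose by 1.02 ± 0.20 and 0.66 ± 0.12, again in all 22. Klf2 was called in all 3 subsets alone, Ahr in Th17 and Treg cultures and Batf in Th17 cultures only. Of 6 genes for ligands of the 9 members that were tested, out of 12, 1 rose in the mean effect, Fn1 (1.07 ± 0.31), and 0 fell, again beside 17.7% and 14.1%. That call held in 20 of the 22, with differences of 0.52 to 1.28. Among single subsets, Fn1 was called in Th17 cultures only.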

How the data were processed

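The authors deposited linear signal intensities, 1 per probe set on each array, computed by MAS5 according to the submitters' processing notes. Neither its version nor its scaling target is given in the sources used here. The Mouse 430 2.0 array is named in the protocols of both Treg and Th1 samples. Of 45101 probe sets, 34945 carried 1 gene symbol, 932 several and 9224 none in the platform annotation; only the first kind was used. All 14 arrays were grouped by their labels. Trimmed means of the deposited intensities ran from 53.2 to 116.0 between arrays, so log2(signal + 3) values were quantile normalized. A single probe set stood for each gene, that of the highest mean. Genes below percentile 40 of these means (a log2 of 3.60, a signal of 9.10) were left out, and 10916 were fitted in limma (version 3.58.1, R version 4.3.3) on 6 group means without covariates, with an eBayes trend and 8 residual degrees of freedom. The fit was tested on simulated data with effects in the Th17 acetate group only. Those effects were larger than the differences of Itgb7, Selplg and Itgb3. The simulation therefore cannot speak to smaller effects or to groups of 2 arrays. Detection calls were not used, and precision is limited by the number of arrays. Tests were acetate minus control for every subset, the equally weighted mean of these, the differences between subsets, and an F test of the difference between the 3 acetate effects.

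The text names all 9 members, up to 3 called genes per list and direction with the largest difference, the 2 genes most like each member, and the lineage genes Il17a, Foxp3, Tbx21 and Ifng as ranges or means. The members and lists were chosen with earlier results of these data known. Alternatives were other scalings, pseudocounts, filters, probe set rules, eBayes without a trend, a replicate block and each array left out. Where that left 1 array in a group, it was assumed to vary like the others. Labels give no batch or scan date, so a batch cannot be told apart from a subset or treatment. For the array control at the 3-prime end of 18S rRNA, deposited signals were 2809 to 4149 in Th17 arrays, 506 to 3134 in Treg arrays and 298 to 1576 in Th1 arrays. The 3-prime to 5-prime ratios of these signals ran from 0.986 to 1.23 for Gapdh and from 1.10 to 1.42 for actin. Arrays of the same group correlated at r from 0.94 to 0.98.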

Additional observations from a re-analysis of the deposited data

How the results depend on the processing

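Results are counts of the 8 genes called, unless stated. With the mean over probe sets in place of the highest one, the counts were 3 in place of 5 for Th17 acetate against control, 0 in place of 1 for Treg, 1 in place of 2 for Th17 against Th1 control cultures, 2 in place of 3 for Treg against Th1 control cultures, 3 in place of 5 for Th17 against Treg control cultures, and 1 in place of 2 for Treg against Th1 acetate cultures. The shares of all genes called were, in the same order, 15.5%, 8.96%, 4.7%, 3.47%, 9.52% and 1.04%. In the main setting they were 20.3%, 12.5%, 6.6%, 5%, 11.3% and 1.49%. On the signals as deposited, 6 in place of 2 genes differed between Th17 and Th1 control cultures, and the F test of the acetate effects called 1 in place of 0; on that scale the median of all genes tested was itself shifted by 0.62 between Th17 and Th1 control cultures, 0.41 between Th17 and Treg, 0.19 between Treg and Th1, and by -0.29 (Th17), -0.13 (Treg) and 0.23 (Th1) for acetate against control. It also called 467 genes higher and 1461 lower with acetate in Th17 cultures, against 1274 and 946 after quantile normalization, and 2906 and 119 for Th17 against Th1 control cultures, against 328 and 393. The share of all genes called was 27.7% in place of 6.6% for Th17 against Th1 control cultures. For the F test it was 0.705% in place of 0.797%. An eBayes fit without a trend called 4 in place of 5 for Th17 acetate against control, 2 in place of 3 for Treg against Th1 control and 1 in place of 2 for Th17 against Th1 acetate cultures. Of all genes it called 18.5%, 3.88% and 4.02%, in place of 20.3%, 5% and 5.24%. Scaling by trimmed means, and no filter on low values, also gave 4 in place of 5 for Th17 acetate against control, and no filter gave 2 in place of 3 for Treg against Th1 control cultures. Of all genes, trimmed means called 20.5% for Th17 acetate. Without the filter, 10.3% of 18193 genes were called for Th17 acetate and 2.41% for Treg against Th1 control cultures. Leaving out each array in turn gave 2 to 5 for Th17 acetate, 0 to 1 for Treg acetate, 0 to 3 for Th1 acetate, 3 to 4 for the mean effect, 2 to 3 for Th17 against Th1 control, 2 to 4 for Treg against Th1 control, 2 to 5 for Th17 against Treg control, 1 to 2 for Th17 against Th1 acetate, 0 to 5 for Treg against Th1 acetate, 1 to 1 for Th17 against Treg acetate and 0 to 2 for the F test. The share of all genes called moved with the array left out too. For Th17 acetate it was 12.5% to 19.4% when a Th17 array was removed. A changed count is therefore not by itself a result about the 8 genes. With the replicate number as a block, which could be fitted for the acetate effects only, the F test called 1 gene, Gpr15 (adjusted p = 0.0479), beside 0.595% of all genes. The counts for acetate stayed at 5, 1, 0 and 3, beside 16.5%, 8.76%, 2.07% and 28.4% of all genes. The labels do not say what the numbers share; deviations of same-numbered arrays correlated at 0.15, 0.16 and -0.06 for Th17, 0.06 for Treg and -0.16 for Th1 cultures, and Th17 acetate replicate 3 correlated best with control replicate 2. No called result changed sign in any of these settings. Over all member results and settings, 1757 kept their direction and side of the threshold, 59 lost and 25 gained a call, and 47 that were not called changed sign. The causes were not tested.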

Other observations

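Among untreated cultures, other trafficking genes also set the subsets apart, in lists chosen with earlier results of these data known. Of 14 other trafficking receptors tested, 5 were higher and 0 lower in Th17 than in Th1 cultures, beside 3% and 3.6% of all genes tested, with a median log2 difference of 0.70. Ccr6, the receptor for Ccl20, differed by 4.81 ± 0.35 (limma adjusted p = 5.41e-06), Ccr8 by 2.15 ± 0.30 (adjusted p = 0.00144) and the leukotriene receptor Ltb4r1 by 1.68 ± 0.42 (adjusted p = 0.0324, a call lost in 8 of 21 alternatives). In Treg against Th1 cultures 6 were higher and 1 lower, beside 2.86% and 2.14% of all genes, led by Ccr6 (3.13 ± 0.38), Ccr8 (2.48 ± 0.33) and the Th1-type receptor Cxcr3 (2.38 ± 0.49, called in 18 of 21), with Ltb4r1 at -2.50 ± 0.46. In Th17 against Treg cultures 3 were higher and 6 lower, beside 5.32% and 6.01% of all genes, with Ltb4r1 at 4.18 ± 0.42 (adjusted p = 7.57e-05) and Cxcr3 at -3.05 ± 0.45 (adjusted p = 8.24e-04).

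Of 11 trafficking regulators tested, Ahr, a receptor for aromatic ligands, was higher in Th17 than in Th1 control cultures by 4.43 ± 0.34 (limma adjusted p = 8.58e-06) and in Th17 than in Treg control cultures by 2.47 ± 0.34 (adjusted p = 5.30e-04), both in all 21 alternatives. Klf2 was higher in Treg than in Th1 control cultures by 3.08 ± 0.54 (adjusted p = 0.00593), a call kept in 20 of 21.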
